A study of Homo sapiens with 4 samples.

Results

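The subject is a class of host macrophage-like cells in PANC-1 tumours, here called the Ccl3 and Il1b class after the chemokine and cytokine genes that define it. It held 305 mouse parts of droplet barcodes, out of 484 macrophage-like and 1053 kept mouse parts in 4 libraries. PANC-1 cells are an established human pancreatic cancer line, and the tumours had been grown under the skin of nude mice, which lack thymus-derived T cells. There was 1 library per group: tumours given agrimoniin, an ellagitannin from agrimony plants, tumours given erlotinib, which blocks the tyrosine kinase of the EGF receptor, tumours given both (called combination), and control tumours. The number, age and strain detail of the mice, the doses and whether a library pooled tumours are not given in the sources used here, and all groups share the cell line, the site and the enzymatic digestion to single cells. The series' design text names a further agent, cyranin, and no group with erlotinib alone, and the groups here follow the sample labels.

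Every barcode held UMIs (unique molecular identifiers, 1 per captured RNA molecule) of both species, so the mouse-gene UMIs of a barcode were taken as its mouse part, and a part need not be 1 cell. Kept mouse parts had 500 or more UMIs and 250 or more genes, and mitochondrial genes took no more than 25% of their UMIs. A part was called macrophage-like where the complement genes C1qa, C1qb and C1qc made up at least 0.3% and the collagen genes Col1a1, Col1a2 and Col3a1 under 1% of its UMIs. A member of the class had under 3 summed UMIs of Lyve1, Cbr2, Cd163 and Clec10a, genes of resident macrophages, and more UMIs of Ccl3, Ccl4 and Il1b together than of Mmp12, Arg1, Gpnmb, Atp6v0d2 and Trem2 together. The rule thus used measured values of these genes, and the levels of the class against other macrophage-like parts are descriptions with no test.

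Ccl3 and Ccl4 (macrophage inflammatory proteins 1 alpha and 1 beta) are small secreted proteins that attract leukocytes through chemokine receptors such as Ccr1. Il1b encodes the precursor of interleukin 1 beta, which is made after NF-kB activation, cut by caspase 1 in the inflammasome and acts through Il1r1 on stromal, endothelial and immune cells. In pancreatic tumours, macrophages that make interleukin 1 beta are a known population beside lipid-handling and tissue-resident macrophages. Tissue digestion is itself known to induce immediate early genes, heat-shock genes and chemokines in macrophages, so these families were followed in every host class.

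The members numbered 92 in agrimoniin, 96 in erlotinib, 70 in combination and 47 in control. Libraries held 202 to 306 barcodes, 1056 in all against a target of 8000 cells in the labels, no barcode sequence was shared between libraries, and human genes took 68.5% to 77.9% of all UMIs. Total UMIs were 5133188 in agrimoniin, 5301915 in erlotinib, 4050572 in combination and 3656549 in control. The members' summed mouse UMIs were 350228 in agrimoniin, 382382 in erlotinib, 205954 in combination and 212282 in control. The median member held 3469.5 mouse UMIs in agrimoniin, 3720 in erlotinib, 2851.5 in combination and 4029 in control, so combination members were the shallowest and control members the fewest. All levels below are CPM, the summed UMIs of a gene scaled to 1e+06 mouse UMIs of the same parts, and every interval is a 95% interval that covers counting error only. With 1 library per group there is no replicate check on any difference between libraries, and no test between groups was possible.

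Membership is a range on a count scale, not a sharp type. Macrophage-like parts with equal sums of the opposing gene groups, just outside the rule, numbered 9 in agrimoniin, 11 in erlotinib, 3 in combination and 3 in control. Members with a difference of 1 UMI, just inside it, numbered 6 in agrimoniin, 11 in erlotinib, 5 in combination and 2 in control, while 61 in agrimoniin, 49 in erlotinib, 43 in combination and 30 in control had a difference of 10 UMIs or more. By C1q alone, 31 parts fell outside in agrimoniin, 38 in erlotinib, 31 in combination and 14 in control. Of these, 15 in agrimoniin, 17 in erlotinib, 16 in combination and 5 in control had no C1q UMI. The highest C1q share outside was 0.281% in agrimoniin, 0.2997% in erlotinib, 0.261% in combination and 0.293% in control. The lowest share inside was 0.318% in agrimoniin, 0.319% in erlotinib, 0.311% in combination and 0.361% in control. The resident gene sum alone left out a further 9 parts in agrimoniin, 6 in erlotinib, 12 in combination and 4 in control.

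The macrophage label held against the markers. All 14 macrophage markers (among them Csf1r, Adgre1, Cd68, Tyrobp and Mertk) had UMIs in the class in every library, with a summed level of 20629 to 23276 CPM, against 22103 to 26855 CPM in the other macrophage-like parts and 209 to 380.1 CPM in collagen-positive parts without C1q, which served as the host class that should lack these genes. Of 11 monocyte markers, 7 to 9 had UMIs in the class in each library, and Hp was at 0 in all 4. They summed to 970.4 to 1385 CPM in the class, above the other macrophage-like parts of the same library in all 4 libraries (565 to 977 CPM). In collagen-positive parts they summed to 1858 to 1977 CPM, the highest of these classes. Most of the class sum was Nr4a1, also an immediate early gene, at 1082 CPM in agrimoniin, 622 in erlotinib, 1024.5 in combination and 702 in control. In the other macrophage-like parts Nr4a1 was 418 CPM in agrimoniin, 269 in erlotinib, 645 in combination and 213 in control. Without Nr4a1 the class sum was above the other macrophage-like parts in agrimoniin only. Microglia markers summed to 1350 to 1969 CPM in the class, above the other macrophage-like parts of the same library in all 4 libraries (681 to 1393 CPM). Of these 5 markers 3 or 4 had UMIs in the class in each library, and Sall1 was at 0 in all 4. Neutrophils also make Il1b, and their markers summed to 84.8 to 120.3 CPM, with Retnlg and Ly6g at 0 in all 4 libraries and 7 to 9 of 11 markers at 0 in each. Markers of natural killer and T cells summed to 23.6 to 81.1 CPM, of B cells to 18.8 to 106 CPM, of dendritic cells to 9.71 to 26.2 CPM and of mast cells to 0 to 9.71 CPM. In the other macrophage-like parts the natural killer and T cell markers summed to 0 to 52.8 CPM, below the class in every library but control. Fibroblast markers summed to 88.9 to 179 CPM in the class, against 7479 to 8887 CPM in collagen-positive parts.

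Ccl3 (ENSMUSG00000000982) stood at nearly the same level in the class in every library. It was 814 CPM in agrimoniin, 873 in erlotinib, 767 in combination and 763 in control. In the Mmp12 and Arg1 class, the macrophage-like parts on the opposite side of the rule, it was 96.3 CPM in agrimoniin, 98.6 in erlotinib, 89.1 in combination and 112 in control, and in collagen-positive parts it was at most 16.9 CPM. No treated library lay more than 1.5-fold from control for Ccl3 in the class. Members were chosen partly on Ccl3 and Ccl4, so the rule itself shapes the levels of both genes in every library.

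Ccl4 (ENSMUSG00000018930) followed the same order of classes. Its level in the class was 2498 CPM in agrimoniin, 2777 in erlotinib, 2685 in combination and 2393 in control, and no treated library lay more than 1.5-fold from control. In the Mmp12 and Arg1 class it was 154 CPM in agrimoniin, 191 in erlotinib, 223 in combination and 283 in control. The Lyve1 and Cbr2 class, macrophage-like parts with resident genes, lay above the Mmp12 and Arg1 class in both summed levels in every library, and in control above the Ccl3 and Il1b class too. Ccl4 was 935 CPM in agrimoniin, 1178 in erlotinib, 1958 in combination and 2829 in control there, and Ccl3 was 307 CPM in agrimoniin, 294 in erlotinib, 557 in combination and 1616 in control, from 15 parts in agrimoniin, 9 in erlotinib, 14 in combination and 4 in control. Single parts carried much of this: 1 control part held 50 of the 68 UMIs of Ccl3, Ccl4 and Il1b, and 1 erlotinib part 36 of 60. Without the part with most of these UMIs in each library, an alternative added after seeing the data, Ccl4 was 755 CPM in agrimoniin, 615 in erlotinib, 1477 in combination and 716 in control and Ccl3 was 315 CPM in agrimoniin, 55.9 in erlotinib, 530.0 in combination and 716 in control. Both were then below the Ccl3 and Il1b class in every library, and Ccl3 in erlotinib was also below the Mmp12 and Arg1 class. Shares of parts with a Ccl3 UMI, each part thinned to 2000 UMIs, ordered the classes otherwise in combination and control. They were 33.3% in agrimoniin, 33.3% in erlotinib, 53.8% in combination and 75% in control in the Lyve1 and Cbr2 class. In the Ccl3 and Il1b class they were 46.7% in agrimoniin, 51.0% in erlotinib, 47.2% in combination and 48.9% in control. No order between these classes is therefore given for Ccl3.

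Il1b (ENSMUSG00000027398) varied between libraries more than the chemokines did. In the class it was 2578 CPM in agrimoniin, 1344 in erlotinib, 2792 in combination and 2106 in control, from 903 UMIs in agrimoniin, 514 in erlotinib, 575 in combination and 447 in control. A single control member held 82 of the 447 control UMIs, which raises the control level in each ratio given here. The top erlotinib member held 38 of 514. The erlotinib library was the lowest, with a ratio to control of 0.638 (0.561 to 0.726), while the ratio was 1.22 (1.09 to 1.37) for agrimoniin and 1.33 (1.17 to 1.504) for combination. Since members were chosen partly on Il1b, the same was computed over all macrophage-like parts, which were not: Il1b was 1692 CPM in agrimoniin, 916 in erlotinib, 1905 in combination and 1255 in control, with the same order. Unlike the chemokines, Il1b was low in the Lyve1 and Cbr2 class, at 14.6 CPM in agrimoniin, 0 in erlotinib, 203 in combination and 135 in control.

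The remaining markers given for the class were not used by the rule. Rgs1 (ENSMUSG00000026358), which shortens signalling by chemokine receptors, was 2541 CPM in agrimoniin, 1595 in erlotinib, 2403 in combination and 1776 in control in the class. It was also present in the Mmp12 and Arg1 class, at 973 CPM in agrimoniin, 1648 in erlotinib, 1403 in combination and 1102 in control, with erlotinib of that class above erlotinib of the Ccl3 and Il1b class. Cd69 (ENSMUSG00000030156), an early activation antigen, was 243 CPM in agrimoniin, 159.5 in erlotinib, 160.2 in combination and 273 in control in the class and 67.4 CPM in agrimoniin, 92.8 in erlotinib, 134 in combination and 96.8 in control in the Mmp12 and Arg1 class, from few UMIs. Tnf (ENSMUSG00000024401), the tumour necrosis factor gene, was 439.7 CPM in agrimoniin, 246 in erlotinib, 665 in combination and 283 in control in the class, highest in combination, and 183 CPM in agrimoniin, 81.2 in erlotinib, 178 in combination and 104 in control in the Mmp12 and Arg1 class. In the Lyve1 and Cbr2 class Tnf was 365 CPM in agrimoniin, 196 in erlotinib, 641 in combination and 67.4 in control. Thinned to 2000 UMIs each, the share of parts with a Tnf UMI was 43.5% in agrimoniin, 30.2% in erlotinib, 43.4% in combination and 36.2% in control in the Ccl3 and Il1b class, against 53.3% in agrimoniin, 33.3% in erlotinib, 53.8% in combination and 25% in control in the Lyve1 and Cbr2 class. In the treated libraries this share and the CPM put the classes in opposite orders, so no order between them is given for Tnf.

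**Figure D1:**
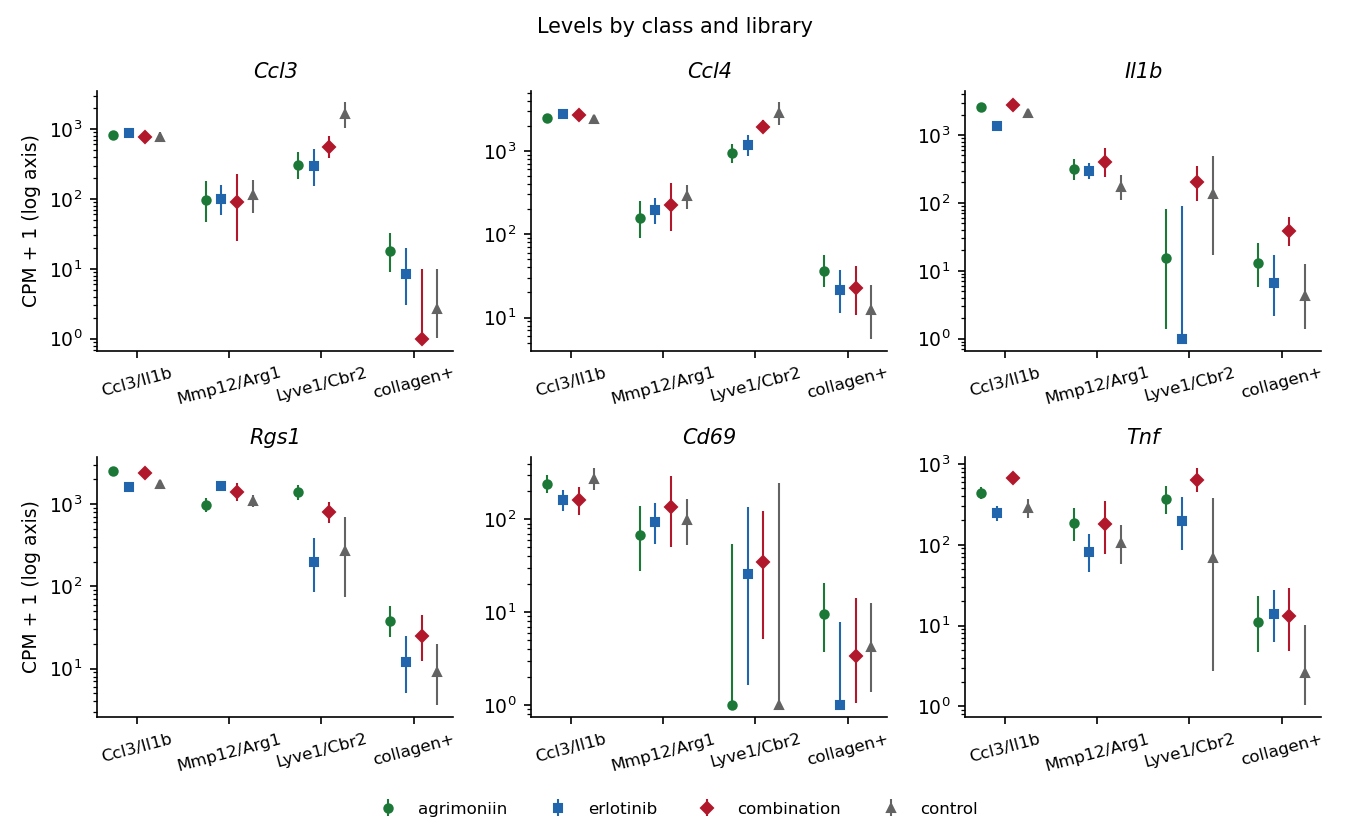
Level of Ccl3, Ccl4, Il1b, Rgs1, Cd69 and Tnf (CPM + 1, log axis) in the Ccl3 and Il1b class, the Mmp12 and Arg1 class, the Lyve1 and Cbr2 class and collagen-positive parts without C1q, with 1 point per library and bars for the 95% counting interval. Ccl3 spans 763 to 873 CPM in the Ccl3 and Il1b class in all libraries, while Il1b in that class is lowest in erlotinib, at 1344 CPM. The rule chose members partly on both genes.

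Shares of parts with a UMI depend on depth, so each part was also thinned to 2000 UMIs, which left out 17 combination members. At that depth the share of members with an Il1b UMI was 78.3% in agrimoniin, 63.5% in erlotinib, 86.8% in combination and 72.3% in control. Without thinning these shares were 87.0% in agrimoniin, 72.9% in erlotinib, 87.1% in combination and 80.9% in control. In collagen-positive parts, with median depths of 3735 to 6352 UMIs, the thinned Il1b share was 1.96% in agrimoniin, 2.33% in erlotinib, 1.32% in combination and 0% in control, which was taken as the background.

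The share of members with a Ccl3 UMI depended on thinning. Thinned, it was 46.7% in agrimoniin, 51.0% in erlotinib, 47.2% in combination and 48.9% in control, nearly equal in the 4 libraries. Without thinning it was 54.3% in agrimoniin, 58.3% in erlotinib, 50% in combination and 72.3% in control, so that the deeper control members stood apart only in the unthinned share. For Ccl4 the thinned share was 80.4% in agrimoniin, 71.9% in erlotinib, 79.2% in combination and 78.7% in control, and for Rgs1 it was 87.0% in agrimoniin, 82.3% in erlotinib, 75.5% in combination and 72.3% in control. Rgs1 was not particular to members. Its thinned share in the Mmp12 and Arg1 class was 62.5% in agrimoniin, 75.6% in erlotinib, 76.9% in combination and 53.6% in control. Ccl3 and Ccl4, unlike Rgs1, are genes of the rule, which shapes their shares among members.

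The members were not uniform in their defining genes. Of all 305, 124 held UMIs of Ccl3, Ccl4 and Il1b, 126 held exactly 2 of these genes and 55 exactly 1. Il1b without either chemokine was seen in 40 members, and Ccl3 or Ccl4 without Il1b in 56. Members with more Il1b than Ccl3 plus Ccl4 UMIs, here called Il1b-led, numbered 42 in agrimoniin, 35 in erlotinib, 35 in combination and 19 in control. Ccl3/Ccl4-led members numbered 45 in agrimoniin, 54 in erlotinib, 32 in combination and 25 in control. The median member held 7 UMIs of Ccl3 plus Ccl4 in agrimoniin, 7 in erlotinib, 6 in combination and 10 in control, with single members at up to 98. For Il1b it held 5 UMIs in agrimoniin, 3 in erlotinib, 5 in combination and 4 in control, with single members at up to 82.

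**Figure D2:**
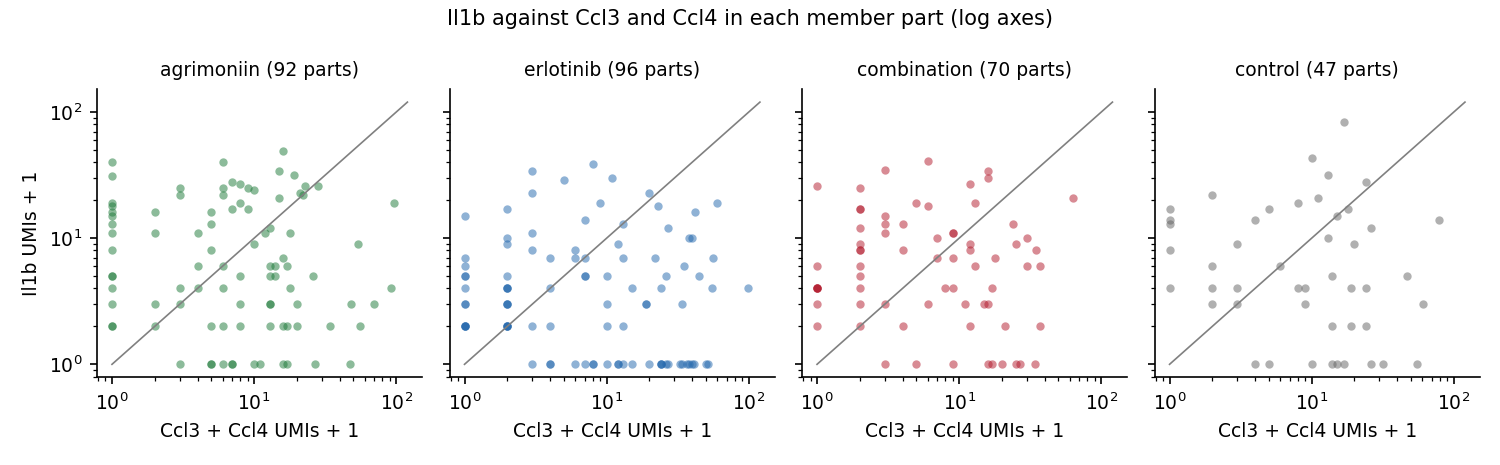
UMIs of Il1b against summed UMIs of Ccl3 and Ccl4 (each + 1, log axes) in every member, 1 point per member and 1 panel per library, with the line of equal counts. In every library some members lie on either axis, and 124 of the 305 hold UMIs of all 3 genes.

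The split by leading gene, chosen after the values were seen, went with other genes. Among 1949 genes, 55 (2.82%) were 1.5-fold or more higher in Il1b-led members in the mean over libraries with the same sign in all 4, and 38 (1.95%) were lower. These and all log2 ratios below use CPM + 50, so that ratios of weakly expressed genes come out too small. Higher in Il1b-led members were Vegfa, the vascular growth factor gene, with a mean log2 ratio of 1.29 ± 0.26 (SD, n = 4 libraries), Mxi1, an antagonist of Myc, at 1.45 ± 0.23, Cytip, a regulator of leukocyte adhesion, at 1.28 ± 0.22, and Nfil3, a transcription factor of myeloid and lymphoid cells, at 0.99 ± 0.31.

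Vegfa was 1228 CPM in agrimoniin, 781 in erlotinib, 1097 in combination and 1086 in control in Il1b-led members, against 465 CPM in agrimoniin, 276 in erlotinib, 551 in combination and 338 in control in Ccl3/Ccl4-led members. It was higher in Il1b-led members of each library, which the counts above required of every gene.

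On the lists used here, 7 of 12 further chemokine genes were lower in Il1b-led members and 0 higher, with a median log2 ratio of -0.88, and 4 of 14 interferon genes were lower and 0 higher, with a median of -0.31, beside 0.04 over all genes. The genes given next were picked from the lower ones after their values were seen. Ccl2, the main monocyte attractant, had a mean log2 ratio of -2.25 ± 0.54, its neighbour Ccl7 -2.03 ± 0.51, Ccl12 -1.26 ± 0.51 and Cxcl10 -1.32 ± 0.80. Tnf stood at -1.65 ± 0.69, the antiviral gene Rsad2 at -2.28 ± 1.40 and the immediate early gene Egr1 at -1.14 ± 0.82. Ccl2 was 108 CPM in agrimoniin, 133 in erlotinib, 87.4 in combination and 11.2 in control in Il1b-led members. In Ccl3/Ccl4-led members it was 453 CPM in agrimoniin, 646 in erlotinib, 739 in combination and 393 in control. It was lower in Il1b-led members of each library, as every call required. Rgs1 at -0.18 ± 0.59 and Cd69 at 0.12 ± 0.44 had small means over libraries of opposite sign. Rgs1 stood at -0.62 in agrimoniin, 0.20 in erlotinib, -0.75 in combination and 0.46 in control. Cd69 stood at 0.75 in agrimoniin, 0.08 in erlotinib, -0.21 in combination and -0.14 in control. Ccl2, Ccl7 and Ccl12 are close paralogs, and reads that fit several of them could have been split or dropped in counting.

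Of macrophage-like parts, the class made up 65.7% in agrimoniin, 60.4% in erlotinib, 68.0% in combination and 57.3% in control. The exact intervals were 57.2% to 73.5% in agrimoniin, 52.3% to 68.0% in erlotinib, 58.0% to 76.8% in combination and 45.9% to 68.2% in control. The interval of each treated library overlapped that of control. Of all kept mouse parts the class made up 31.0% in agrimoniin, 31.5% in erlotinib, 28.1% in combination and 23.3% in control. These intervals overlapped too, at 25.8% to 36.6% in agrimoniin, 26.3% to 37.0% in erlotinib, 22.6% to 34.1% in combination and 17.6% to 29.7% in control. Overlap of separate intervals does not give the counting error of a difference, which was not computed. The rest of the macrophage-like parts were Mmp12 and Arg1 class parts (24 in agrimoniin, 43 in erlotinib, 16 in combination and 28 in control), Lyve1 and Cbr2 class parts (15 in agrimoniin, 9 in erlotinib, 14 in combination and 4 in control) and parts with equal sums. Such shares cannot tell fewer cells of a type from poorer recovery of that type.

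**Figure D3:**
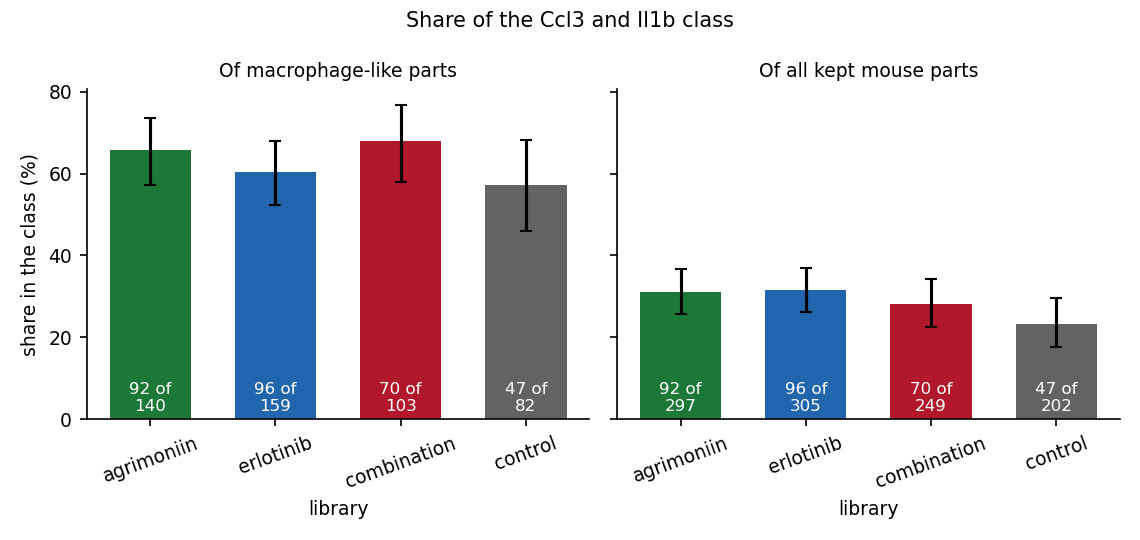
Share of the Ccl3 and Il1b class among macrophage-like parts (left) and among all kept mouse parts (right), in percent, by library, with exact 95% intervals for counting error and the counts written in the bars. Treated libraries lie at 60.4% to 68.0% of macrophage-like parts and control at 57.3%, with overlapping intervals.

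The class was set against the other macrophage-like parts of the same library, a contrast that the rule itself uses, so the following values describe and test nothing. Of 1974 genes outside the rule with a mean of at least 100 CPM, 54 (2.74%) were 1.5-fold or more higher in the class in the mean with the same sign in all 4 libraries, and 51 (2.58%) were lower. Heat-shock chaperones were the family with the largest part of its members on the high side, with 8 higher of the 10 that passed this level filter, from a list of 12. Counts of other lists are likewise over their genes that passed it. The median log2 ratio of that list was 0.90, beside 0.01 over all genes. Hsph1, a co-chaperone of Hsp70, was 631 CPM in agrimoniin, 701 in erlotinib, 345 in combination and 758 in control in the class, against 178 CPM in agrimoniin, 179 in erlotinib, 116 in combination and 207 in control in the other parts. Its mean log2 ratio was 1.55 ± 0.21, with the same sign in each library, as every call required. Hspd1, the mitochondrial chaperonin, stood at 0.98 ± 0.24 and Hspa1b, an inducible Hsp70, at 1.39 ± 0.66, with the caution that Hspa1a and Hspa1b are nearly identical copies.

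Among immediate early genes, 7 of 26 were higher and 0 lower, with a median of 0.39. They were Dusp2 (1.31 ± 0.53), a phosphatase of MAP kinases, the nuclear receptor Nr4a1 (1.12 ± 0.38), the antiproliferative gene Btg2 (1.03 ± 0.71), Atf3 (0.85 ± 0.38), Fos (0.83 ± 0.28), Fosb (0.68 ± 0.07) and Socs3 (0.60 ± 0.31). Heat-shock and immediate early genes are also the genes that tissue digestion is known to induce, and the part of digestion in these values was not tested. Cd69, a marker given for the class but outside the rule, had a mean log2 ratio of 1.03 ± 0.43. Rgs1 stood at 0.76 ± 0.36. Also higher were Rgs2, a regulator of G protein signalling (1.14 ± 0.42), the stress kinase Plk3 (1.14 ± 0.27) and Peli1, a ubiquitin ligase of Toll-like receptor signalling (1.09 ± 0.39).

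Of the secreted signals outside the rule, Cxcl10, an interferon-induced ligand of Cxcr3, stood out on the high side. It was 894 CPM in agrimoniin, 1098 in erlotinib, 1141 in combination and 933 in control in the class, against 173 CPM in agrimoniin, 269 in erlotinib, 1057 in combination and 122 in control in the other macrophage-like parts. The combination library was the exception, with a log2 ratio of 0.11, against 1.85 to 2.52 in the other libraries. Tnf had a mean log2 ratio of 0.83 ± 0.19 and Il10ra, a receptor subunit for interleukin 10, 0.59 ± 0.22, the members called among 5 cytokine genes. Among 12 further chemokine genes, 1 was higher and 5 were lower, with a median of -0.61: Ccl6 (-2.75 ± 0.94), Ccl8 (-2.46 ± 1.09), Ccl9 (-1.34 ± 0.91), Cxcl1 (-0.84 ± 0.74) and Ccl12 (-0.59 ± 0.42) were lower.

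Receptors and signalling genes differed less. Cxcr4, the receptor of Cxcl12, was higher at 0.64 ± 0.31 and alone among 10 receptor genes, while Ccr1 stood at -0.49 ± 0.36. Of 17 NF-kB genes, 2 were higher, the inhibitor gene Nfkbiz (0.80 ± 0.57) and the activation antigen Cd83 (0.68 ± 0.26), with a list median of 0.19. In the inflammasome and prostaglandin list, 1 of 8 was higher, the prostaglandin E2 receptor gene Ptger4 (0.69 ± 0.28). Nlrp3, the sensor that starts inflammasome assembly, stood at 0.39 ± 0.23.

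On the low side were genes of resident macrophages, which the rule removes in part through Lyve1 and its companions. Of 10 such genes outside the rule, 6 were lower and 1 higher, with a median of -0.91. Folr2, a folate receptor, was at -1.57 ± 0.50, the mannose receptor gene Mrc1 at -1.38 ± 0.81, Selenop at -1.21 ± 0.66 and F13a1, a coagulation factor gene, at -1.94 ± 1.27. F13a1 was only slightly lower in control, with a log2 ratio of -0.21. Fcrls was the resident-list gene that was higher, at 0.65 ± 0.22. The other lists held 0 higher members: lipid-associated genes had 2 of 18 lower, Fabp5 (-1.14 ± 0.22), a fatty acid carrier, and the protease gene Ctsl (-0.93 ± 0.31).

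For phagocytosis and complement, 3 of 20 genes were lower, and for the interferon response 2 of 15, Ifi27l2a (-1.09 ± 0.82) and Ifitm3 (-0.64 ± 0.44). MHC class II presentation, Toll-like receptor signalling, glycolysis, lactate handling, the hypoxia response, the oxidative stress response and the cell cycle had 0 called genes of 9, 3, 10, 2, 7, 7 and 5, with medians of 0.26, 0.15, -0.12, -0.08, 0.06, -0.25 and 0.25 in that order.

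**Figure D4:**
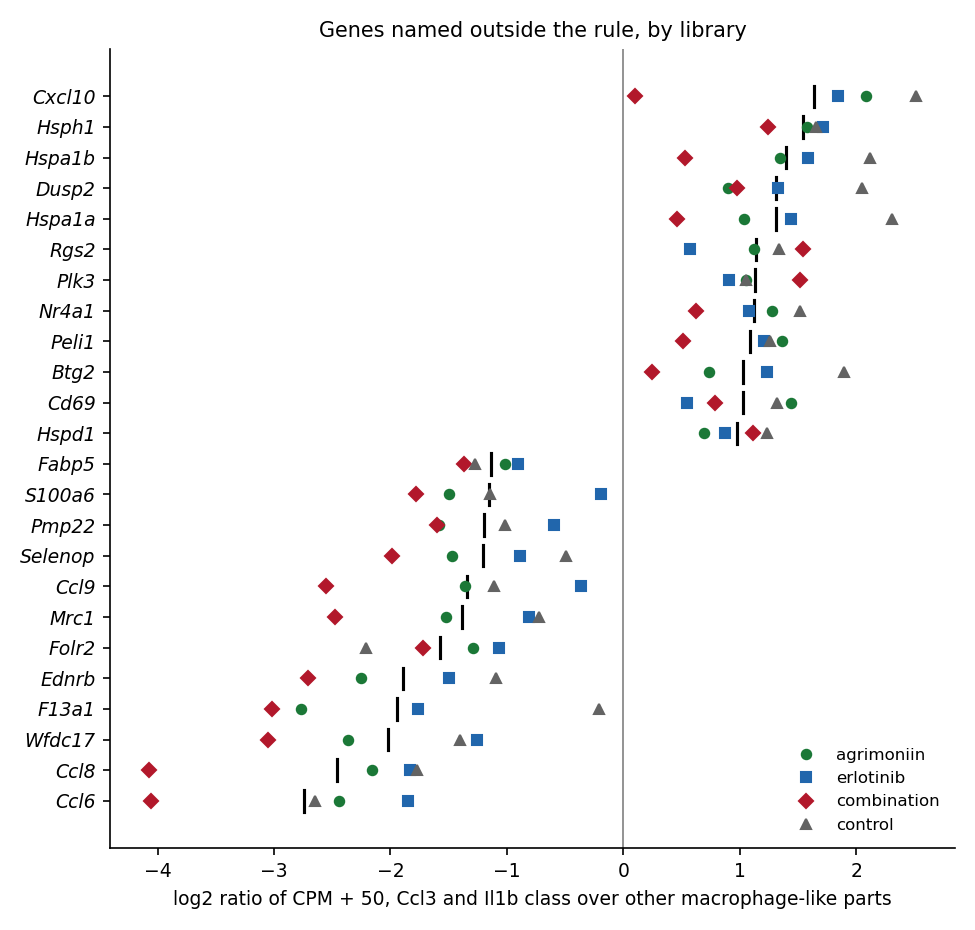
Log2 ratio (CPM + 50) of the Ccl3 and Il1b class over the other macrophage-like parts for the genes named on each side outside the rule, with 1 symbol per library and a bar for the mean. Cxcl10 in combination, at 0.11, lies apart from the other libraries, and Ccl6 and Ccl8 lie farthest to the low side.

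The other macrophage-like parts are mixed, so the class was also set against each of their main classes. Against the Mmp12 and Arg1 class, 84 of 1992 genes (4.22%) were higher and 35 (1.76%) lower. All 10 heat-shock genes that passed the level filter were higher, with a median of 0.97, and 18 of 26 immediate early genes, with a median of 0.79, beside -0.03 over all genes. Egr1 stood at 2.00 ± 1.01, Klf2 at 1.83 ± 0.50, Hspa1b at 2.19 ± 0.25 and Cxcl10 at 2.53 ± 0.92. Unlike in the mixed comparison, the monocyte attractants were higher, with Ccl2 at 1.27 ± 0.84 and Ccl7 at 1.58 ± 1.34. Lower were Adam8, a membrane protease (-1.24 ± 0.11), Fabp5 (-1.37 ± 0.27), Hilpda, a hypoxia-induced lipid droplet gene (-0.83 ± 0.11), and Pgk1 of glycolysis (-0.63 ± 0.37). The glycolysis list had a median of -0.42 with 1 of 10 lower.

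Against the Lyve1 and Cbr2 class, which rests on 4 to 15 parts per library, 310 of 1933 genes (16.0%) were higher and 200 (10.3%) lower, around a median over all genes of 0.15. MHC class II presentation separated them, with 7 of 9 genes higher and a median of 1.75. H2-Aa, an alpha chain of class II, was 3917 CPM in agrimoniin, 4545 in erlotinib, 3239 in combination and 4372 in control in the class, against 526 CPM in agrimoniin, 957 in erlotinib, 776 in combination and 1616 in control in the Lyve1 and Cbr2 class. It was higher in the Ccl3 and Il1b class in every library, as every call required. Itgax, an integrin of myeloid cells, stood at 3.03 ± 0.33, Vegfa at 2.80 ± 0.77 and Mmp14, a membrane matrix protease, at 2.69 ± 0.57. Cadm1, an adhesion gene, was 505 CPM in agrimoniin, 520.4 in erlotinib, 408 in combination and 707 in control in the class and had 0 UMIs in the Lyve1 and Cbr2 class in all libraries. Lower in the Ccl3 and Il1b class were 8 of 12 further chemokine genes, with a median of -2.03, and 8 of 10 resident genes, with a median of -2.15. Mrc1 stood at -2.65 ± 0.37 and Ccl8 at -4.13 ± 0.71.

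Each treated library was set against control within the class. The 3 comparisons share the control library, and a high or low control value enters all of them. A gene is called higher or lower where it differed by 1.5-fold or more on the CPM + 50 scale, among genes with a mean of at least 100 CPM. Of 1946 genes, 76 (3.91%) were higher and 64 (3.29%) lower in agrimoniin, 7.19% in either direction. Of 1975 genes, 78 (3.95%) were higher and 70 (3.54%) lower in erlotinib, 7.49% in either direction. Of 1946 genes, 128 (6.58%) were higher and 116 (5.96%) lower in combination, 12.5% in either direction, and combination members hold the fewest UMIs. The SD of the log2 ratios over genes was 0.33 in agrimoniin, 0.33 in erlotinib and 0.39 in combination, where counting alone would give 0.22, 0.22 and 0.25. Median ratios over all genes lay between -0.01 and 0.00.

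In agrimoniin members, immediate early genes stood higher than in control members. Of 26 that passed the filter, 11 were higher and 1 lower, with a median log2 ratio of 0.49, where 3.91% and 3.29% of all genes were called. Fosb, a subunit of the AP-1 transcription factor, was 5379 CPM in agrimoniin and 2760.5 CPM in control, 1.95-fold higher (1.78 to 2.14). Fos was 6816 CPM in agrimoniin and 4433 CPM in control, Junb 1342 CPM in agrimoniin and 744 CPM in control and Klf4 1225 CPM in agrimoniin and 622 CPM in control. The 1 lower gene was Egr1, at 779 CPM in agrimoniin and 1215 CPM in control. The same list was also high in agrimoniin parts that are no macrophages: in collagen-positive parts 14 higher and 0 lower of 28 were called, with a median of 0.62, where 8.44% of all genes were higher and 5.33% lower. In the other macrophage-like parts of agrimoniin 18 higher and 3 lower of 26 were called, with a median of 0.84, where 6.94% of all genes were higher and 6.60% lower. The list was high in each of these host classes, and the part of this in the class's values was not tested.

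Among ligands in agrimoniin members, Ccl12 was 186 CPM in agrimoniin and 66.0 CPM in control, 2.81-fold higher (1.56 to 5.43). A Ccl12 UMI was held by 21.7% of agrimoniin and 23.4% of control members, and a single agrimoniin member held 18.5% of the agrimoniin UMIs. Ccl8, a ligand of monocyte and lymphocyte receptors, was 437 CPM in agrimoniin and 146 CPM in control, and Cxcl1 179.9 CPM in agrimoniin and 66.0 CPM in control. Cxcl2, a neutrophil attractant, went the other way, at 519.7 CPM in agrimoniin and 1197 CPM in control, 2.30-fold lower (1.90 to 2.80). A Cxcl2 UMI was held by 43.5% of agrimoniin and 44.7% of control members, and a single control member held 24.4% of the control UMIs. In all, 4 higher and 1 lower of 12 chemokine genes were called outside the rule, with a median of 0.32. No NF-kB gene of 16 and no heat-shock gene of 11 was called, with medians of 0.06 and -0.12.

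Genes of lipid-handling macrophages lay on the low side in agrimoniin members, with 0 higher and 4 lower of 18 and a median of -0.31. Spp1, which encodes osteopontin, was 228 CPM in agrimoniin and 664 CPM in control, 2.91-fold lower (2.19 to 3.88). Cd63, a tetraspanin of late endosomes, was 791 CPM in agrimoniin and 1324 CPM in control, with Anxa1 at 203 CPM in agrimoniin and 386 CPM in control and Fn1 at 148 CPM in agrimoniin and 249.7 CPM in control. The MAP kinase phosphatase gene Dusp4 was 34.3 CPM in agrimoniin and 184 CPM in control, 5.36-fold lower (2.75 to 11.2), from 12 and 39 UMIs. Ifi44, an interferon-induced gene, was 126 CPM in agrimoniin and 386 CPM in control. On the high side, Ccnd1, the cyclin D1 gene, was 231 CPM in agrimoniin and 66.0 CPM in control, 3.51-fold higher (1.97 to 6.70), from 81 and 14 UMIs. Smchd1, a chromatin protein gene, was 237 CPM in agrimoniin and 75.4 CPM in control and Cytip 459.7 CPM in agrimoniin and 198 CPM in control. Also named by size were Gcnt2 and Antxr2 on the high side, 2.70-fold higher (1.65 to 4.63) and 3.08-fold higher (1.64 to 6.29), and Samd8, Oser1, Derl1 and Zc3h12c on the low side, between 2.44-fold and 2.91-fold lower from 19 to 40 UMIs in either library.

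Erlotinib members showed little of the immediate early difference. Of 26 genes, 1 was higher, Dusp5 (0.67), and 1 lower, Dusp2 (-0.77), with a median of 0.18, which is also the median of that list in collagen-positive parts (0.18). The share of all genes called was 3.95% higher and 3.54% lower. What differed instead were ligands of the monocyte-attracting group. Ccl7 was 389.7 CPM in erlotinib and 155 CPM in control, 2.51-fold higher (1.71 to 3.77). Ccl2 was 424 CPM in erlotinib and 207 CPM in control, Ccl12 243 CPM in erlotinib and 66.0 CPM in control and Ccl8 309 CPM in erlotinib and 146 CPM in control. With 4 of 10 chemokine genes higher and 0 lower, the list median was 0.19. The same list was higher in erlotinib's collagen-positive parts, with 4 higher and 0 lower of 5 and a median of 1.11, where 5.78% of all genes were higher and 6.30% lower, and lay at -0.30 in its other macrophage-like parts, and the part of either in the class's values was not tested.

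The interleukin 1 pair stood in opposite directions in erlotinib members. Il1b was the lowest of the 4 libraries, as given above, while Il1rn, which encodes the natural antagonist of the interleukin 1 receptor, was 651 CPM in erlotinib and 339 CPM in control, a log2 ratio of 0.85. In the other treated libraries Il1rn was 445 CPM in agrimoniin and 349.6 CPM in combination. Nlrp3 was 999 CPM in agrimoniin, 975 in erlotinib, 1364 in combination and 862 in control, and 0 of 6 inflammasome and prostaglandin genes were called in erlotinib.

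Resident genes were mixed in erlotinib members, with 3 higher and 2 lower of 9 and a median of 0.46. Folr2 was 170.0 CPM in erlotinib and 42.4 CPM in control, 4.01-fold higher (1.99 to 9.16), from 65 and 9 UMIs. Mrc1 was 204 CPM in erlotinib and 113 CPM in control and Stab1, a scavenger receptor gene, 136 CPM in erlotinib and 70.7 CPM in control. Fcrls was 115 CPM in erlotinib and 287 CPM in control, 2.50-fold lower (1.67 to 3.77), and F13a1 52.3 CPM in erlotinib and 193 CPM in control. Hmox1, which encodes the heme-degrading enzyme heme oxygenase 1, was 408 CPM in erlotinib and 165 CPM in control, 2.47-fold higher (1.71 to 3.68), while Fth1, the ferritin heavy chain gene, was 5149 CPM in erlotinib and 7952 CPM in control. Of 7 oxidative stress genes these were the only ones called.

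Lipid-associated genes were again low, with 0 higher and 5 lower of 18 in erlotinib and a median of -0.18. They were Cd63 (-0.80), Anxa1 (-0.80), Fabp5 (-0.69), Fn1 (-0.65) and Cd9 (-0.61). Spp1 was 533 CPM in erlotinib and 664 CPM in control and was not called. Cst3, a cysteine protease inhibitor gene, was 2359 CPM in erlotinib and 4616 CPM in control, 1.96-fold lower (1.79 to 2.14), from 902 and 980 UMIs. Of the interferon genes, those called higher were Isg15 (0.83) and Ifitm3 (0.73), 2 of 15, with a median of 0.21. Ly6a, an interferon-inducible surface antigen gene, was 910.1 CPM in erlotinib and 344 CPM in control, 2.65-fold higher (2.05 to 3.45). Jdp2, a repressor of AP-1, was 167 CPM in erlotinib and 37.7 CPM in control from 64 and 8 UMIs, and Ccnd1 233 CPM in erlotinib and 66.0 CPM in control. Named by size were also Antxr2 on the high side, 3.01-fold higher (1.61 to 6.12), and Dusp4, Gpr141, Irf2bpl, Trf and Bcl2a1b on the low side, between 2.32-fold and 3.06-fold lower, where Bcl2a1b has near-identical copies and its reads may be split. Col1a2, also low in erlotinib (109.8 CPM in erlotinib and 269 CPM in control) and in combination (58.3 CPM), is a gene of the rule, which caps collagen in every member.

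Combination members showed the largest number of genes past 1.5-fold, with immediate early genes high and heat-shock genes low. Of 26 immediate early genes 13 were higher and 0 lower, with a median of 0.59, where 6.58% and 5.96% of all genes were called. Klf2, a transcription factor that restrains inflammatory genes, was 1539 CPM in combination and 594 CPM in control, 2.59-fold higher (2.10 to 3.21). Fos was 7351 CPM in combination and 4433 CPM in control, Junb 1486 CPM in combination and 744 CPM in control and Dusp1 3010.4 CPM in combination and 1729 CPM in control. In combination's collagen-positive parts 15 higher and 0 lower of 28 were called, with a median of 0.60, where 7.12% of all genes were higher and 4.08% lower. In its other macrophage-like parts 21 higher and 2 lower of 26 were called, with a median of 1.29, where 11.1% of all genes were higher and 14.9% lower. As in agrimoniin, the list was high in host classes beyond the Ccl3 and Il1b class, and the part of this in its values was not tested.

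Heat-shock chaperones were lower in combination members, with 0 higher and 7 lower of 11 and a median of -0.71. Hsph1 was 631 CPM in agrimoniin, 701 in erlotinib, 345 in combination and 758 in control. Hspa1a was 3335 CPM in agrimoniin, 4265 in erlotinib, 2369 in combination and 4258 in control, and Hsp90aa1 2253 CPM in agrimoniin, 3164 in erlotinib, 1787 in combination and 2958 in control. Combination was the lowest library for each of the 3 genes. In agrimoniin and erlotinib the list medians were -0.12 and -0.05, with 0 and 1 of 11 genes called lower. The list was low in combination's collagen-positive parts too, with 5 of 12 lower and a median of -0.47, and at -0.08 in its other macrophage-like parts, and the part of this in the class's values was not tested.

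Tnf, Nfkbia and Nfkbiz were higher in combination members. Tnf was 665 CPM in combination and 283 CPM in control, 2.35-fold higher (1.73 to 3.24), from 137 and 60 UMIs. Nfkbia, the inhibitor that NF-kB itself induces, was 1835 CPM in combination and 782 CPM in control, 2.35-fold higher (1.95 to 2.83). With Nfkbiz (0.70) and Ier5 (0.75), 3 of 18 genes of NF-kB subunits, inhibitors and targets were higher and 0 lower, with a median of 0.30, where 6.58% of all genes were higher. Cd14, the co-receptor for endotoxin, had a log2 ratio of 0.72, and 1 of 3 Toll-like receptor genes was called.

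Of 10 chemokine genes in combination members, 4 were higher and 1 was lower, with a median of 0.25. Cxcl1 was 252 CPM in combination and 66.0 CPM in control, 3.83-fold higher (2.09 to 7.48), of which a single member held 25% of the combination UMIs. Ccl7 was 447 CPM in combination and 155 CPM in control, Ccl2 388 CPM in combination and 207 CPM in control and Ccl8 248 CPM in combination and 146 CPM in control, while Ccl5, an attractant of T cells and monocytes, was 58.3 CPM in combination and 169.6 CPM in control. Ptger4 (0.61) and Nlrp3 (0.63) were higher and Ptgs2, the inducible cyclooxygenase gene, was lower (-0.85). Among receptors, Cx3cr1 (-0.76) and Ccr2 (-0.74) were lower and Tnfrsf1b (0.66) higher. In the combination library the other macrophage-like parts had 10 of 12 chemokine genes higher, with a median of 1.27.

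The interferon-induced genes Ifi44 and Rsad2 were low in combination members, Ifi44 at 82.5 CPM in combination and 386 CPM in control, 4.68-fold lower (2.75 to 8.42), and Rsad2 at 272 CPM in combination and 674 CPM in control, 2.48-fold lower (1.81 to 3.44). The interferon list as a whole had 1 higher (Irf8, 0.70) and 1 lower of 14, with a median of 0.16. Lipid-associated genes had 0 higher and 7 lower of 18, with a median of -0.33. Spp1 was 272 CPM in combination and 664 CPM in control, 2.44-fold lower (1.78 to 3.39), and Cd63 709 CPM in combination and 1324 CPM in control. Itgax (-0.75), Acp5 (-0.72), Fabp5 (-0.69), Cd9 (-0.96) and the lysosomal lipase gene Lipa (-0.59) were the others. Named by size on the high side were also Got1, Wfdc17 and Crip1, 3.14-fold higher (1.93 to 5.27), 4.38-fold higher (1.99 to 10.95) and 3.01-fold higher (1.57 to 6.16). On the low side were Nucks1, Dnajc5, Acsl1, a fatty acid activating enzyme gene, and the kinase gene Prkcb, between 2.48-fold and 3.77-fold lower from 9 to 87 UMIs in either library.

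Side by side over the 3 comparisons with their shared control, Cd63 was 791 CPM in agrimoniin, 737 in erlotinib, 709 in combination and 1324 in control, and Spp1 was 228 CPM in agrimoniin, 533 in erlotinib, 272 in combination and 664 in control, so control was the highest library for both. Lipid-associated genes had 0 higher members in all 3 comparisons. The other lists, with the medians for agrimoniin, erlotinib and combination, were cytokines (0.36, -0.01 and 0.37), receptors (0.15, 0.26 and 0.04), MHC class II (0.02, 0.06 and -0.18), phagocytosis and complement (-0.06, 0.03 and -0.08), glycolysis (0.21, 0.03 and 0.17) and hypoxia (0.00, -0.30 and 0.29). In these 6 lists at most 2 genes per list were called in 1 direction in each comparison. H2-Eb1, the beta chain gene of the class II molecule I-E, was 4449 CPM in agrimoniin, 5118 in erlotinib, 4039.7 in combination and 1941 in control, with control the lowest library. With 1 control library, effects of treatment and any difference in the mice or handling of that library cannot be told apart, for this gene and for every value against control. Lactate handling had 0 of 2 genes called and the cell cycle list at most 1 of 5.

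**Figure D5:**
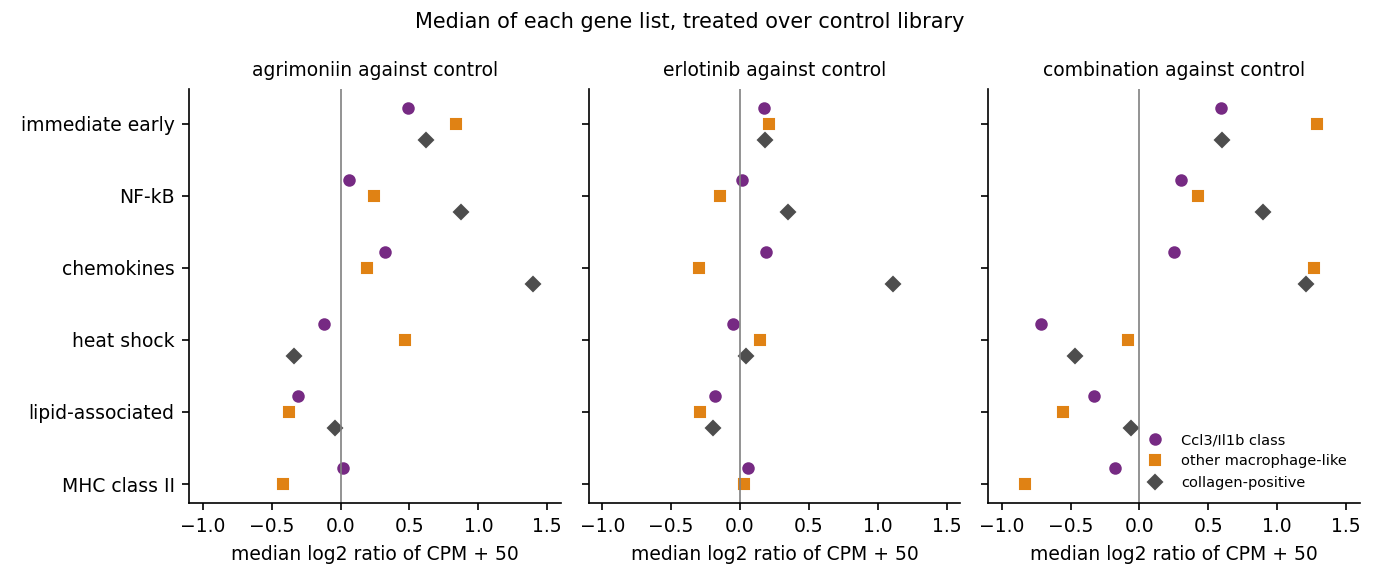
Median log2 ratio (CPM + 50) of treated over control for 6 gene lists in the Ccl3 and Il1b class, the other macrophage-like parts and collagen-positive parts without C1q, 1 panel per treated library. Immediate early genes lie to the right in all host classes of agrimoniin and combination, and heat-shock genes of the class lie to the left in combination, at -0.71. No MHC class II gene passed the level filter in collagen-positive parts, so that symbol is missing.

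The human UMIs of each member barcode were not used by the rule and allowed a test. The human share also has the barcode's mouse UMIs in its denominator, which the rule uses, so its test is not independent of the rule. Human genes took a median of 76.3% of UMIs in member barcodes against 74.2% in other macrophage-like barcodes in agrimoniin, 76.1% against 77.4% in erlotinib, 79.6% against 80.6% in combination and 74.6% against 74.1% in control. The mean within-library difference was 0.065 percentage points (SD 1.57, n = 4 libraries; two-sided exact sign-flip permutation test, p = 1, the smallest it can give being 0.13), with 2 of 4 libraries on either side. Human UMIs per barcode differed by a mean of -1378 (SD 1778, n = 4; exact p = 0.25), and were lower in member barcodes in 3 of 4 libraries.

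Genes of the human part differed little with the mouse class. Of 1968 human genes, 1 (0.0508%) was 1.5-fold or more higher beside the class in the mean with the same sign in all 4 libraries and 1 (0.0508%) was lower. The higher gene was CLU, a secreted chaperone gene, whose mean log2 ratio of 0.80 (SD 0.84) rests on control, at 2.05, against 0.25 to 0.48 in the treated libraries, and was 0.38 without control. The lower gene was HIST1H4C, a replication-dependent histone gene. Human HIST1H4C was 271 CPM in agrimoniin, 354 in erlotinib, 246 in combination and 262 in control beside the class, against 438 CPM in agrimoniin, 454 in erlotinib, 495 in combination and 480.0 in control beside the other macrophage-like parts. It was lower beside the class in 4 of 4 libraries, as the call required. The human cell cycle list had a median of -0.21 over 8 genes, with 0 called, the heat-shock list -0.11 over 12 genes and the NF-kB list -0.11 over 7. Human CCL3, CCL4 and IL1B had 0 UMIs beside the class in all libraries, which allows up to 3.08 to 6.08 CPM of each by counting error.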

How the data were processed

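The authors deposited raw UMI counts of human and mouse genes in each barcode. Per the submitters' processing notes, Cell Ranger was used with the builds hg38 and mm10, its version not being stated. Barcodes have 27 bases, which is not the layout of the kit named in the labels. Members and gene lists were chosen with earlier results of these data known. UMIs of member parts were summed per library and scaled to CPM; log2 ratios used a pseudocount of 50 CPM and genes with a mean of at least 100 CPM. Ratios have exact conditional 95% intervals, shares Clopper-Pearson ones. Genes were named by size: 8 per side for treated against control (a UMI in at least 20% of parts and at most 25% of UMIs from 1 part) and 12 per side for the class against other macrophage-like parts, plus list members; those against the 2 single classes and between Il1b-led and Ccl3/Ccl4-led members were added after seeing values. Doublets were not called, because each barcode mixed both species. Python 3.11.15, numpy 2.4.6, pandas 2.3.3 and scipy 1.17.1 were used, with figures from matplotlib 3.10.9, and the scripts were tested on simulated data. Gene positions and sequences of the mouse genes are not reported here.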

Additional observations from a re-analysis of the deposited data

Results flagged for a closer look

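Each gene named by size in any treated comparison, and the 5 markers given for the class, was looked at in every treated comparison. In 5 cases such a gene lay on opposite sides of control in the class and in the other macrophage-like parts, by 1.5-fold or more each way. The share of all genes with such a split was not computed, so the number of cases carries no reading. Cytip and Smchd1 had been named by size in agrimoniin and are flagged in combination. The difference between these effects was not tested, since each library is 1 sample. Cxcl2 had a log2 ratio of agrimoniin over control of -1.13 in the class and 0.73 in the other parts, where a single control part held 76 of 119 UMIs, and without the part with most UMIs in each library the ratios were -0.99 and 1.77. Rsad2 had -1.17 in the class and 2.49 in the other parts for combination over control, where a single part held 62 of 110 combination UMIs, and -1.13 and 1.76 without the top parts. Cytip had 1.03 and -1.21 for combination (1.20 and -1.29 without the top parts), Smchd1 0.84 and -0.64 (0.94 and -0.81), and Dnajc5 -1.11 and 0.62 (-1.27 and 0.69). The values without the top parts were added after seeing the data.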

How the results depend on the processing

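No paired analysis was possible because each group has 1 library. Values were recomputed with other pseudocounts, level filters, scaling and member sets, or, for class against other parts, without 1 library. Of 840 values of single genes, 811 stayed close to those reported and 29 moved. Of 846 list medians, 817 stayed close and 29 moved, with 0 reversed in either. A level filter cannot change the value of a single gene, so those settings stayed the same by construction. Thinned parts and a stricter C1q threshold were not used for these values. Over all kept mouse parts the class's share was 31.0% in agrimoniin, 31.5% in erlotinib, 28.1% in combination and 23.3% in control, and with a margin of at least 3 UMIs its share of macrophage-like parts was 47.8% in erlotinib. Counts of called genes depend on the scale, higher and lower given in turn. With a pseudocount of 10 CPM they were 130 and 130 in agrimoniin, 142 and 114 in erlotinib and, for lower alone, 192 in combination. With 200 CPM they were 18 and 9 in agrimoniin, 15 and 11 in erlotinib, 32 and 23 in combination, and 24 and 21 for the class against the other macrophage-like parts. With a mean of at least 50 CPM they were 138 and 118 in agrimoniin, 153 and 118 in erlotinib, and 214 and 205 in combination. With at least 200 CPM they were 36 and 17 in agrimoniin, 29 and 23 in erlotinib, and 70 and 46 in combination. With no filter they were 232 and 204 in agrimoniin, 289 and 197 in erlotinib, and 354 and 378 in combination. By construction, a larger pseudocount shrinks the ratios and a stricter filter tests fewer genes. The human share difference changed sign with a margin of 3 UMIs (-0.50 percentage points, exact p = 0.75), without the agrimoniin library (-0.62) and without the control library (-0.064), and over the settings that leave out 1 library it ran from -0.62 to 0.53 percentage points, with human UMIs from -1887 to -522. Control, with 47 members, limits every treated comparison, and low genes rest on under 40 UMIs in a library.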

Other observations

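The balance of MHC class II transcripts differed in control. Per 100 UMIs of H2-Aa, members held 114 UMIs of H2-Eb1, the beta chain gene of I-E, in agrimoniin, 113 in erlotinib, 125 in combination and 44.4 in control. The other macrophage-like parts held 116 in agrimoniin, 124 in erlotinib, 112 in combination and 44.4 in control. H2-Ab1 held 91.6, 81.2, 109 and 91.5 UMIs per 100 of H2-Aa in members of agrimoniin, erlotinib, combination and control, and Cd74 113, 102, 110 and 99.6, so neither stood apart in control in this way. In members H2-Eb1 was 4449 CPM in agrimoniin, 5118 in erlotinib, 4039.7 in combination and 1941 in control, 2.29-fold higher (2.05 to 2.56) in agrimoniin and 2.64-fold higher (2.37 to 2.94) in erlotinib, and it was the only class II gene called higher in all 3 comparisons, which share the control library. The labels do not give the genetic background of the mice in each group, and a difference in mice or in counting of this gene between control and treated libraries cannot be told apart from treatment.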
